A study of Mus musculus with 27 samples.

Results

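The response of mouse macrophages to 1 h of lipopolysaccharide (LPS) was measured on chromatin-associated RNA by comparing the 3 LPS 1 h samples with the 3 untreated samples. The genes compared were those with a normalised read count of at least 10 in at least 3 of these 6 samples, which were 11900 of the 45070 genes in the table and held 99.2% of the values of these samples. The samples were wild type bone marrow-derived macrophages (BMDMs), primary macrophages grown from the bone marrow of male C57/BL6 mice. Each culture, untreated ones included, first had 1 h of DMSO, in which the kinase inhibitors tested elsewhere in the study were dissolved. The LPS group then received 10 ng/ml of E. coli LPS for 1 h. Groups taken 0.5, 2 and 4 h after LPS and 1 h after 10 ng/ml of interleukin-4 (IL-4) are used below to place the 1 h values, and each group had 3 replicates. The study used its whole LPS and IL-4 time courses, of which these samples are a part, to find kinases whose genes respond to the stimuli.

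LPS, a component of the outer membrane of Gram-negative bacteria, is recognised by Toll-like receptor 4 (TLR4) together with Cd14 and Ly96 (MD-2). Through the adaptors Myd88 and Ticam1 (TRIF) the receptor activates NF-κB, MAP kinases and interferon regulatory factors, which switch on genes of cytokines, chemokines and their own inhibitors within minutes. Secreted type I interferon then acts back on the same cells through STAT proteins and induces a later set of antiviral genes. RNA bound to chromatin is largely RNA that is still being made, so its level follows transcription more closely than that of RNA from whole cells.

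The macrophage identity of both groups was visible in the values. All 10 macrophage markers examined passed the limit of 10, and the F4/80 gene Adgre1 had 4508, 4175 and 4051 in untreated and 12058, 8594 and 7705 in LPS 1 h samples. Of these 10 markers, 3 were called higher after LPS, Adgre1 among them, 5 lower and 2 were not called (median log2 change -0.80), and 7 were lower with equal totals. The lymphocyte markers summed to 6 to 10 in untreated and 10 to 13 in LPS 1 h samples, with 7 of 13 listed at 0 in all 6, among them Cd3e. The granulocyte markers summed to 15 to 29 and 23 to 110, the dendritic cell markers to 38 to 60 and 86 to 174, the stromal and endothelial markers to 53 to 101 and 65 to 242, and the erythroid, mast cell and megakaryocyte markers to 17 to 21 and 21 to 31. The granulocyte marker Ly6g and the haemoglobin gene Hbb-bs were listed at 0. The highest sum of the granulocyte, dendritic cell and stromal lists after LPS was that of replicate 1, and the part of such cells in the results was not tested. Replicates 2 and 3 resembled each other more than replicate 1 in both groups. Among 596 highly expressed genes the SD of the log2 ratio was 0.151 between untreated replicates 2 and 3 and 0.374 or more between either of them and replicate 1. The corresponding values after LPS were 0.11 and 0.408 or more. The sum over all genes was 2539544 ± 45883 in untreated and 3803480 ± 83841 in LPS 1 h samples (mean ± SD, n = 3). These are sums of scaled values, so they are not sequencing depths, which the files do not give. In bulk samples, fewer cells of a type and less RNA per cell cannot be told apart.

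A total of 3250 genes were called higher after 1 h of LPS (27.3% of the genes tested) and 4909 were called lower (41.3%), by limma at an adjusted p below 0.05. Of the genes tested, 408 reached the limit of 10 in every LPS 1 h sample and in no untreated one, and 1007 the reverse, so these had to differ. Counts and medians of gene lists that hold many such genes are given as a description. Of the 8702 genes with at least 10 in all 6 samples, 30.8% were higher and 36.7% lower, but this limit leaves out genes that were low in 1 group. The remaining 3741 genes were not called. A change of at least 2-fold was found for 2077 genes that rose (17.5%) and 3603 that fell (30.3%), and one of at least 4-fold for 983 and 1518 genes. At 16-fold or more the order turned, with 229 genes higher and 51 lower. A change of at least 64-fold was reached by 48 genes that rose and by 0 that fell. The replicates of the groups did not overlap for 73.2% of the genes, which were 3535 higher and 5178 lower. The genes called higher held 32.1% ± 1.42 of the sum of all values in untreated samples and 69.2% ± 1.67 after LPS (SD, n = 3), whereas the genes called lower went from 39.3% ± 0.626 to 11.3% ± 0.415. The 229 genes that rose by at least 16-fold alone went from 0.507% ± 0.0269 to 9.62% ± 0.156.

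Since the sums of the groups differ, the balance of rises and falls depends on how the samples are scaled. The median log2 change of all 11900 genes was -0.29 with the authors' scaling, -0.03 with median-of-ratios factors and -0.86 with equal totals. The share of called genes that were higher was 39.8% with the authors' scaling, 50.1% with median-of-ratios factors and 22.3% with equal totals. It was 49.7% among the 6589 genes with a mean of at least 50, so the excess of falls was among genes with lower values. For some gene lists, the median log2 change is therefore also given relative to the median of all genes or with equal totals. With the authors' scaling, list counts against untreated are to be read beside 27.3% of all genes called higher and 41.3% called lower.

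**Figure D1:**
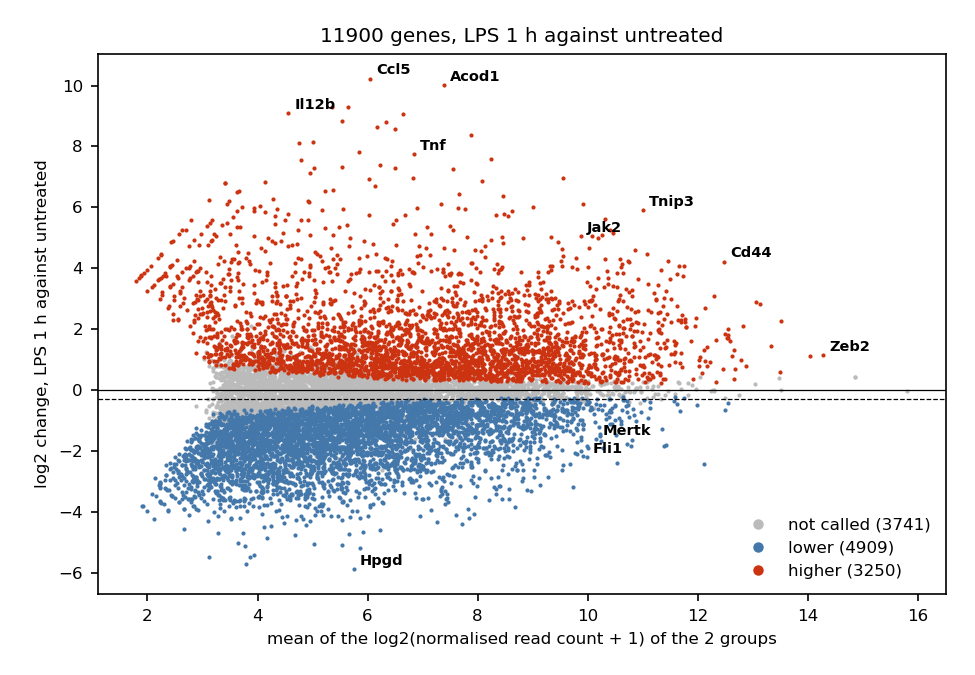
Log2 change after 1 h of LPS (y axis) against the mean level on the log2(normalised read count + 1) scale (x axis) for the 11900 genes. Red points were called higher (3250), blue points lower (4909) and grey points not called (3741), and the dashed line is the median of all genes (-0.29). The rises reach further from the line than the falls, with Ccl5 and Acod1 above a log2 change of 10 and Hpgd lowest at -5.89.

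The values below are normalised read counts in the order of replicates 1, 2 and 3. Changes are differences of log2(value + 1), ± is the standard error of the limma fit (n = 3 per group), and p-values are adjusted over all genes tested. For a gene with values of 0 to 3 in 1 group the log2 change depends on the added 1 and is not a bound.

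The 10 largest rises of protein-coding genes with a mean of at least 50 were those of Ccl5, Acod1, Il1a, Il12b, Slc7a11, Il1b, Olr1, Cxcl2, Tnf and Tnfaip3. Ccl5 (RANTES, a chemokine for T cells and monocytes, chr11:83525778-83530518) had 1, 2 and 0 in untreated and 2367, 2127 and 2065 in LPS 1 h samples (log2 change 10.23 ± 0.36, adjusted p = 2.67e-07). Acod1 (the enzyme that makes itaconate, chr14:103047012-103056573) went from 5, 6 and 2 to 4717, 5378 and 5553 (log2 change 10.02 ± 0.29, adjusted p = 1.23e-07). Both genes had values of 6 or lower before the stimulus and of 2065 or higher after it. Il1a (interleukin-1α, chr2:129299610-129309972) went from 0, 0 and 4 to 1028, 1107 and 1089 (log2 change 9.30 ± 0.57, adjusted p = 3.96e-06), and Il1b (interleukin-1β, chr2:129364578-129371139) from 6, 9 and 24 to 3663, 4173 and 4035 (log2 change 8.36 ± 0.40, adjusted p = 1.14e-06). Il12b (the p40 chain of interleukin-12 and interleukin-23, chr11:44400063-44414677) had values of 0 before LPS and reached 663, 535 and 451 after it (adjusted p = 8.06e-08). Tnf (tumour necrosis factor, chr17:35199367-35202007) had 4, 9 and 8 in untreated and 1685, 1697 and 1538 in LPS 1 h samples (log2 change 7.74 ± 0.25, adjusted p = 1.94e-07). For these 4 cytokine genes every LPS sample lay far above every untreated sample, although groups without overlap were a condition for naming them. Slc7a11 (the cystine importer, chr3:50364936-50443613) had 8, 1 and 1 in untreated and 1791, 1391 and 1288 in LPS 1 h samples (log2 change 8.80 ± 0.54, adjusted p = 3.87e-06), and its untreated values were spread from 1 to 8. Olr1 (LOX-1, a receptor for oxidised lipoprotein, chr6:129485247-129507165) had 2, 0 and 1 in untreated and 375, 526 and 663 in LPS 1 h samples (log2 change 8.13 ± 0.41, adjusted p = 1.47e-06). Cxcl2 (a neutrophil chemokine, chr5:90903899-90905938) had 1, 0 and 1 in untreated and 434, 437 and 429 in LPS 1 h samples (log2 change 8.10 ± 0.30, adjusted p = 3.72e-07), and Tnfaip3 (A20, an inhibitor of NF-κB signalling, chr10:19000910-19015410) had 28, 20 and 15 in untreated and 5167, 3643 and 3664 in LPS 1 h samples (log2 change 7.59 ± 0.23, adjusted p = 1.41e-07). Acod1, Il1a, Il1b, Ccl5 and Olr1 overlap a gene on the other strand, whose reads cannot be told apart because the strand used in counting is not given in the sources used here.

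The largest falls were smaller. Hpgd (the enzyme that inactivates prostaglandins, chr8:56294552-56321046) had 388, 403 and 447 in untreated and 7, 6 and 5 in LPS 1 h samples (log2 change -5.89 ± 0.18, adjusted p = 1.34e-07). Engase (an endoglycosidase that acts on free N-glycans, chr11:118476832-118489209) had 83, 107 and 94 in untreated and 2, 1 and 0 in LPS 1 h samples (log2 change -5.71 ± 0.41, adjusted p = 9.06e-06). Slco2b1 (an organic anion transporter, chr7:99657804-99711340) fell from 419, 309 and 306 to 7, 7 and 12 (log2 change -5.18 ± 0.24, adjusted p = 1.02e-06), and Abcd2 (a peroxisomal transporter of fatty acids, chr15:91145871-91192007) from 229, 296 and 284 to 7, 8 and 6 (log2 change -5.08 ± 0.19, adjusted p = 3.72e-07). None of these 4 genes kept a value above 12. Gpr155 (a lysosomal cholesterol sensor) had 191, 175 and 192 in untreated and 5, 5 and 4 in LPS 1 h samples (log2 change -5.05 ± 0.19, adjusted p = 3.77e-07). Abhd18, a predicted hydrolase, had 58, 63 and 79 in untreated and 0, 2 and 2 in LPS 1 h samples (log2 change -5.01 ± 0.46, adjusted p = 3.17e-05). Mblac2 had 133, 139 and 124 in untreated and 5, 4 and 3 in LPS 1 h samples (log2 change -4.75 ± 0.23, adjusted p = 1.18e-06). Klhl6 (a substrate adaptor of a ubiquitin ligase) had 264, 244 and 265 in untreated and 11, 7 and 9 in LPS 1 h samples (log2 change -4.71 ± 0.20, adjusted p = 5.88e-07). Acp6 (a phosphatase of lysophosphatidic acid) had 54, 60 and 61 in untreated and 0, 1 and 5 in LPS 1 h samples (log2 change -4.69 ± 0.59, adjusted p = 0.000186). In each of these genes the highest LPS value was under 13, and the lowest untreated value was 54 or more. Slco2b1, Gpr155 and Abhd18 overlap a gene on the other strand, whose reads cannot be told apart.

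Promoter sequences of 8 induced genes and 2 genes that fell are shown here, 7 of them with matches to motifs much studied in this response and 3 without. They are the bases just before the RefSeq gene start (GRCm38), written 5′ to 3′ along the gene. They were chosen after the matches had been seen. Capitals mark matches, on either strand, to the letters GGNNNTTCC (a loose NF-κB motif, which includes every match to the stricter GGANTTTCC), TGANTCA (AP-1), GAAANNGAA (the interferon-stimulated response element, ISRE) or TATAAA (the core of the TATA box). TGACGTCA (the cAMP response element) and the CArG box of serum response factor were searched too and had no match in the stretches shown.
Nfkbia (chr12:55492648-55492867, minus strand): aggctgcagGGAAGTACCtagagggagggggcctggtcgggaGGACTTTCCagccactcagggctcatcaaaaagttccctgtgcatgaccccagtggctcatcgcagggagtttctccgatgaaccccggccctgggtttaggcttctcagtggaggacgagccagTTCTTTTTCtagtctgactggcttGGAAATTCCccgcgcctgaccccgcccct
Tnfaip3 (chr10:19015411-19015550, minus strand): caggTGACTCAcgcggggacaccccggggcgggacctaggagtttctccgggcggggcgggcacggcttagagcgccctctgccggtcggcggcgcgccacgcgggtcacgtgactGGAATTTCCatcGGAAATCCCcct
Cxcl2 (chr5:90903779-90903898, plus strand): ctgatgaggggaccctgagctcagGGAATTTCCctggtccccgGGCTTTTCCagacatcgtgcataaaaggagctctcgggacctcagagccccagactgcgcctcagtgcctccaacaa
Acod1 (chr14:103046902-103047011, plus strand): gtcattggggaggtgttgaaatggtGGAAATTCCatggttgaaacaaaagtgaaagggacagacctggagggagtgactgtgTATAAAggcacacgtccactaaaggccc
Cxcl10 (chr5:92348890-92349109, minus strand): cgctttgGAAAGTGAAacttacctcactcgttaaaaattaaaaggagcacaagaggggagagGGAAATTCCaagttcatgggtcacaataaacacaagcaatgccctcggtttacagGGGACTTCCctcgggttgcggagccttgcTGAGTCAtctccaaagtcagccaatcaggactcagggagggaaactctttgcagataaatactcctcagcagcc
Icam1 (chr9:21015780-21015939, plus strand): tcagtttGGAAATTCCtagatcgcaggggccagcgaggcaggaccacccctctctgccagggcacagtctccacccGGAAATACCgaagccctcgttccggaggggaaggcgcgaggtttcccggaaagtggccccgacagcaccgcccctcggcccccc
Ifit1 (chr19:34640769-34640888, plus strand): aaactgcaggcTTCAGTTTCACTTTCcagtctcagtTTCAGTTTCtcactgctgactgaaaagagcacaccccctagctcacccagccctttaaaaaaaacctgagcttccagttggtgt
Jak2 (chr19:29251693-29251802, plus strand): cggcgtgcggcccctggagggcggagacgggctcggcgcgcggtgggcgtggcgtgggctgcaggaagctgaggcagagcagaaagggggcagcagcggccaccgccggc
Hpgd (chr8:56294442-56294551, plus strand): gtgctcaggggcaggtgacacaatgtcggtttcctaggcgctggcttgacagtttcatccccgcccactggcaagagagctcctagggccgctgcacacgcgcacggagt
Klhl6 (chr16:19983050-19983159, minus strand): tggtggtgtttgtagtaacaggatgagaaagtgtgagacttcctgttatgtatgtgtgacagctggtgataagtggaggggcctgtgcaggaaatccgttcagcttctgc

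Nfkbia, whose protein IκBα holds NF-κB in the cytoplasm, has 3 loose NF-κB matches in this stretch and an ISRE match that begins 53 bases before the start. The NF-κB matches that begin 178 and 29 bases before the start also fit the strict form. Tnfaip3 has 2 loose matches that begin 24 and 12 bases before the start, the first of them strict, and an AP-1 match that begins 136 bases before it. In Cxcl2 a strict match lies 96 bases before the start and a further loose match 77 bases before it, and in Acod1 a strict match lies 85 bases before the start and a TATA box 28 bases before it. Cxcl10 has an ISRE match at 213, a strict NF-κB match at 158, a loose match at 103 and an AP-1 match at 74 bases before the start. Icam1 has a strict match at 153 and a loose match at 84 bases, and Ifit1 holds 3 ISRE matches, of which 2 overlap each other. The stretches of Jak2, which rose, and of Hpgd and Klhl6, which fell, hold none of the letters searched. A match is a description of the letters and not evidence that a factor binds there.

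Over all tested protein-coding genes, 8038 of 9922 had a promoter of 300 bases in the RefSeq table (250 before and 50 after the start). The strict NF-κB motif was in 1.36% of these, in 4.64% of the 604 promoters of genes higher by at least 4-fold, in 0.47% of the 1064 promoters of genes lower by at least 4-fold and in 1.65% of the 2419 promoters of genes not called. The loose form was in 22.4%, 22.8%, 20.8% and 22.4% of the same sets, so its share barely varied. The AP-1 motif was in 4.8% of all promoters, 9.93% of those of induced genes and 3.48% of those of repressed genes. The TATA box followed the same order with 6.78%, 12.4% and 6.3%, and the ISRE with 7.39%, 9.27% and 6.58%. The cAMP response element was in 3.46%, 3.64% and 2.44%, and the CArG box in 1.33%, 1.32% and 1.22%. The median number of CG pairs was 21 in all promoters, 20 in those of induced genes and 19 in those of repressed genes, while the lower quartile was 14, 7 and 11. These shares are a description without a test.

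**Figure D2:**
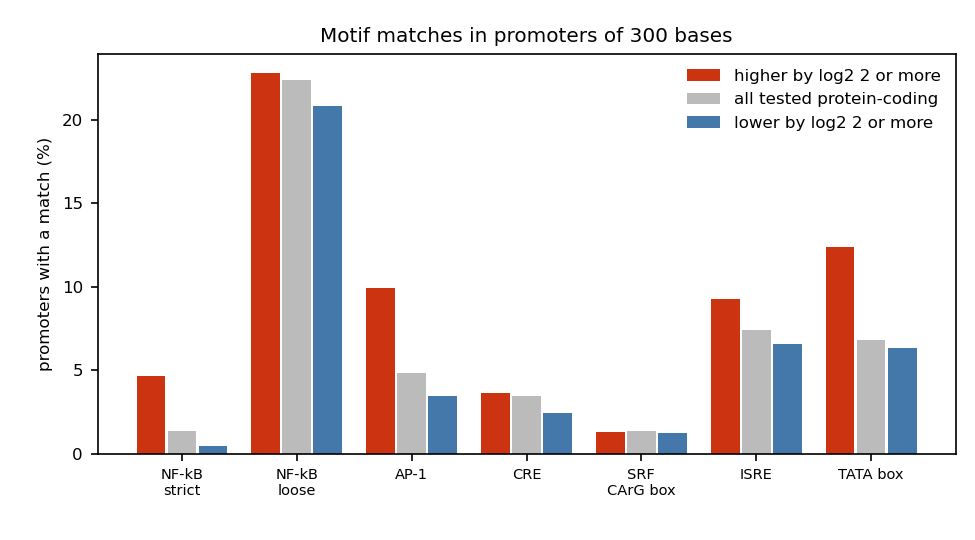
Share of promoters with at least 1 match (y axis, %) for 7 motifs (x axis) in genes higher by a log2 change of 2 or more (red), in all tested protein-coding genes (grey) and in genes lower by 2 or more (blue). The strict NF-κB motif (4.64% against 1.36%), the AP-1 motif (9.93% against 4.8%) and the TATA box (12.4% against 6.78%) stand higher in the red bars than in the grey ones.

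The genes of the LPS receptor complex and other Toll-like receptors moved in both directions. Of the 14 tested of 16 receptor genes, 5 were called higher, 5 lower and 4 were not called, and their median log2 change was -0.19 (0.10 relative to all genes, and 0.08 with median-of-ratios factors). Cd14, the co-receptor that hands LPS to TLR4, rose from 22, 22 and 30 to 295, 340 and 279 (log2 change 3.58 ± 0.17, adjusted p = 1.1e-06). Tlr2, the receptor for bacterial lipopeptides, rose from 60, 58 and 57 to 620, 709 and 767 (log2 change 3.55 ± 0.12, adjusted p = 2.03e-07). Tlr4 itself fell from 304, 356 and 388 to 111, 152 and 153 (log2 change -1.33 ± 0.16, adjusted p = 0.000148). Ly96, its LPS-binding partner, had 119, 114 and 110 in untreated and 260, 184 and 195 in LPS 1 h samples (log2 change 0.88 ± 0.15, adjusted p = 0.00112, not called with equal totals). Ly86 (MD-1, the partner of Cd180) showed the largest fall of the list, with 1413, 1047 and 1186 in untreated and 237, 124 and 141 in LPS 1 h samples (log2 change -2.90 ± 0.24, adjusted p = 1.7e-05). Cd180 itself was not called with 197, 239 and 313 in untreated and 243, 258 and 252 in LPS 1 h samples. Among the nucleic acid sensors of the endosome, Tlr7 had 943, 832 and 937 in untreated and 538, 498 and 468 in LPS 1 h samples (log2 change -0.85 ± 0.10, adjusted p = 0.000116). Tlr8 had 412, 477 and 490 in untreated and 102, 129 and 125 in LPS 1 h samples (log2 change -1.95 ± 0.13, adjusted p = 6.18e-06). Tlr9 was not called with 49, 51 and 64 in untreated and 52, 64 and 70 in LPS 1 h samples. With equal totals, 3 of the 14 were higher and 8 lower.

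Of the adaptors and kinases downstream of TLR4, 24 of 37 tested members were called higher, 8 lower and 5 were not called (37 of 38 tested, median log2 change 0.85, 1.14 relative to all genes). The largest rises were those of Peli1, Ripk2 and Mapkapk2. Peli1, a ubiquitin ligase of the IRAK complexes, had 951, 773 and 783 in untreated and 15348, 13995 and 13077 in LPS 1 h samples (log2 change 4.08 ± 0.11, adjusted p = 1.06e-07). Ripk2, the kinase of the NOD receptors, had 185, 152 and 154 in untreated and 2433, 2534 and 2628 in LPS 1 h samples (log2 change 3.95 ± 0.10, adjusted p = 9.01e-08). Mapkapk2 (MK2, a kinase activated by p38) had 761, 560 and 640 in untreated and 13363, 8900 and 8168 in LPS 1 h samples (log2 change 3.93 ± 0.19, adjusted p = 1.28e-06). Myd88 rose from 18, 18 and 16 to 69, 70 and 65 (log2 change 1.91 ± 0.18, adjusted p = 3.58e-05). Ticam1 rose from 44, 48 and 63 to 189, 188 and 171 (log2 change 1.82 ± 0.16, adjusted p = 3.06e-05). The IRAK kinases, which Myd88 recruits, were split. Irak2 had 408, 335 and 319 against 3005, 2709 and 2441 (log2 change 2.94 ± 0.12, adjusted p = 6.14e-07). Irak3, which holds signalling back, had 250, 232 and 260 against 955, 808 and 789 (log2 change 1.77 ± 0.11, adjusted p = 3.7e-06). Irak4 had 147, 145 and 171 against 35, 52 and 58 (log2 change -1.68 ± 0.20, adjusted p = 0.000157). Irak1 was not called with 71, 73 and 68 against 86, 63 and 69. The MAP kinase kinases of p38 were split too. Map2k3 rose from 79, 90 and 117 to 649, 760 and 873 (log2 change 2.99 ± 0.17, adjusted p = 2.75e-06). Map2k6 fell from 144, 171 and 180 to 15, 9 and 13 (log2 change -3.66 ± 0.22, adjusted p = 3.7e-06). Within the IκB kinase complex and its relatives, Ikbkb (log2 change 1.65), Ikbke (2.94) and Tbk1 (1.27) rose. Ikbkg (NEMO) fell (-1.30), and Chuk was not called (0.16).

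All 11 subunits, relatives and inhibitors of NF-κB were called higher, against 27.3% of all genes, and they were so under each of the 19 alternatives run. Their median log2 change was 3.85 and the smallest was that of Rela (64, 44 and 49 against 218, 202 and 180, log2 change 1.93 ± 0.17, adjusted p = 2.8e-05). Nfkb1 (p105, the precursor of p50) had 835, 748 and 791 in untreated and 13855, 13025 and 12851 in LPS 1 h samples (log2 change 4.06 ± 0.08, adjusted p = 3.87e-08). Relb had 58, 51 and 33 in untreated and 738, 642 and 588 in LPS 1 h samples (log2 change 3.80 ± 0.21, adjusted p = 2.18e-06). Rel had 402, 461 and 508 in untreated and 4493, 5063 and 4892 in LPS 1 h samples (log2 change 3.40 ± 0.11, adjusted p = 1.71e-07). The largest log2 change of the list was that of Nfkbiz, and the inhibitors Nfkbia and Nfkbie rose by more than Nfkb1, Relb and Rel. Nfkbia had 49, 55 and 55 in untreated and 1340, 1868 and 1823 in LPS 1 h samples (log2 change 4.94 ± 0.15, adjusted p = 1.3e-07). Nfkbie had 34, 21 and 22 in untreated and 693, 624 and 680 in LPS 1 h samples (log2 change 4.68 ± 0.19, adjusted p = 5.1e-07). Nfkbiz (IκBζ, a nuclear cofactor) had 199, 202 and 233 in untreated and 6957, 7138 and 7330 in LPS 1 h samples (log2 change 5.08 ± 0.09, adjusted p = 3.15e-08). The list as a whole summed to 1833 to 1941 in untreated and 30254 to 30360 in LPS 1 h samples.

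Immediate early transcription factors, whose genes respond to many stimuli without new protein synthesis, were either higher or not called at 1 h. Of these genes, 14 of 21 tested members were called higher, 0 lower and 7 were not called (21 of 26 tested, median 2.04). Of the 21, Nr4a3 and Egr2 passed the limit on low values only through the LPS samples. Fewer calls were made under other limits: of the 10 with at least 10 in all 6 samples, 6 were higher and 0 lower, and of the 7 with a mean of at least 50, 7 were higher. Nr4a3, an orphan nuclear receptor, had 1, 0 and 0 in untreated and 142, 107 and 106 in LPS 1 h samples (log2 change 6.55 ± 0.35, adjusted p = 1.92e-06). Egr2 had 2, 1 and 5 in untreated and 51, 57 and 64 in LPS 1 h samples (log2 change 4.14 ± 0.41, adjusted p = 4.92e-05). Myc had 6, 14 and 9 in untreated and 71, 106 and 130 in LPS 1 h samples (log2 change 3.30 ± 0.34, adjusted p = 6.25e-05). Junb had 18, 18 and 49 in untreated and 255, 252 and 245 in LPS 1 h samples (log2 change 3.26 ± 0.35, adjusted p = 8.33e-05). Fos and Jun, which together form AP-1, were not called, with 15, 19 and 45 against 18, 18 and 12 for Fos and 46, 38 and 47 against 35, 28 and 34 for Jun. At 0.5 h Fos had stood at 77, 80 and 116 and Jun at 250, 163 and 220, above every untreated and LPS 1 h sample. Egr1 showed the same order: 2, 1 and 18 in untreated cells, 291, 233 and 380 at 0.5 h and 19, 16 and 12 at 1 h (log2 difference -4.17 ± 0.66, adjusted p = 1.01e-05 for 1 h against 0.5 h). Against untreated cells Egr1 was not called (log2 change 1.76 ± 0.77, adjusted p = 0.0715), but was with replicate number as a block (adjusted p = 0.0353) and without replicate 3 (0.00474). In the comparison of 1 h with 0.5 h, 12 of the 21 were lower at 1 h and 2 higher. Of all genes, 28.7% were lower and 30.3% higher.

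Of the cytokine genes, 18 of 20 tested members were called higher, 1 lower and 1 was not called (20 of 26 tested, median 4.49, or 4.29 with the 5 members whose untreated values were all 3 or lower taken against a value of 3). Of the 20, 9 passed the limit on low values only through the LPS samples and so had to be higher, and of the 5 with at least 10 in all 6 samples, 4 were higher and 0 lower. Next to the interleukin-1, interleukin-12 and TNF genes described above, Il1rn, which encodes the antagonist of the interleukin-1 receptor, had 3, 1 and 1 in untreated and 281, 377 and 421 in LPS 1 h samples (log2 change 7.14 ± 0.32, adjusted p = 8.46e-07). Tnfsf9 (the ligand of 4-1BB) had 6, 11 and 11 in untreated and 1223, 1133 and 1410 in LPS 1 h samples (log2 change 6.96 ± 0.23, adjusted p = 1.97e-07). Il6 had 0, 1 and 0 in untreated and 120, 72 and 72 in LPS 1 h samples (log2 change 6.10 ± 0.39, adjusted p = 4.45e-06). Il10, the main anti-inflammatory cytokine, had 7, 4 and 11 in untreated and 179, 188 and 224 in LPS 1 h samples (log2 change 4.65 ± 0.32, adjusted p = 6.42e-06). Il27 and Ebi3, the chains of interleukin-27, had 3, 5 and 3 against 305, 266 and 259 and 5, 11 and 14 against 135, 174 and 183. The growth factor genes Csf1 (31, 18 and 7 against 451, 277 and 293) and Csf2 (listed at 0 before LPS and 27, 15 and 17 after it) were called higher too. Il16 was the only member called lower, with 90, 93 and 107 in untreated and 8, 7 and 11 in LPS 1 h samples (log2 change -3.35 ± 0.23, adjusted p = 6.3e-06). Vegfa was not called with 131, 91 and 65 against 280, 88 and 90, except with replicate number as a block (adjusted p = 0.0495). Ifnb1, the gene of interferon-β, did not reach the limit for testing: its values were 0 before LPS and 17, 16 and 5 after it. Il12a, Il23a, Osm, Csf3 and Inhba did not reach it either.

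Of the chemokine genes, 15 of 16 tested members were called higher, 0 lower and 1 was not called (16 of 23 tested), but 11 of the 16 were tested only because of their LPS values and so had to be higher, and of the 5 with at least 10 in all 6 samples, 4 were higher and 0 lower. The median was 5.90, or 4.94 with the 10 members whose untreated values were all 3 or lower taken against 3. Cxcl10, a ligand of Cxcr3, had 3, 3 and 2 in untreated and 617, 585 and 559 in LPS 1 h samples (log2 change 7.34 ± 0.19, adjusted p = 8.06e-08). Ccl4 had 15, 15 and 12 in untreated and 3222, 2026 and 1847 in LPS 1 h samples (log2 change 7.26 ± 0.21, adjusted p = 1.3e-07). Ccl3 had 30, 13 and 19 in untreated and 903, 844 and 800 in LPS 1 h samples (log2 change 5.37 ± 0.26, adjusted p = 1.19e-06). Ccl2, which draws monocytes, had 0, 6 and 3 in untreated and 264, 199 and 217 in LPS 1 h samples (log2 change 6.22 ± 0.63, adjusted p = 5.65e-05). Cxcl1, Cxcl11 and Ccl22 were listed at 0 in untreated cells and had 135, 121 and 83 for Cxcl1, 60, 86 and 79 for Cxcl11 and 40, 53 and 49 for Ccl22 after LPS. Ccl9 and Cxcl16 started higher, at 37, 54 and 84 and 119, 150 and 144, and reached 521, 654 and 637 (log2 change 3.42 ± 0.27, adjusted p = 1.41e-05) and 912, 1061 and 1087 (log2 change 2.88 ± 0.12, adjusted p = 6.82e-07). Among neighbours in kind, Ccl6 was not called, with 16, 19 and 15 in untreated and 10, 14 and 21 in LPS 1 h samples, and Cxcl9 was below the limit with 0, 0 and 0 against 8, 4 and 2.

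**Figure D3:**
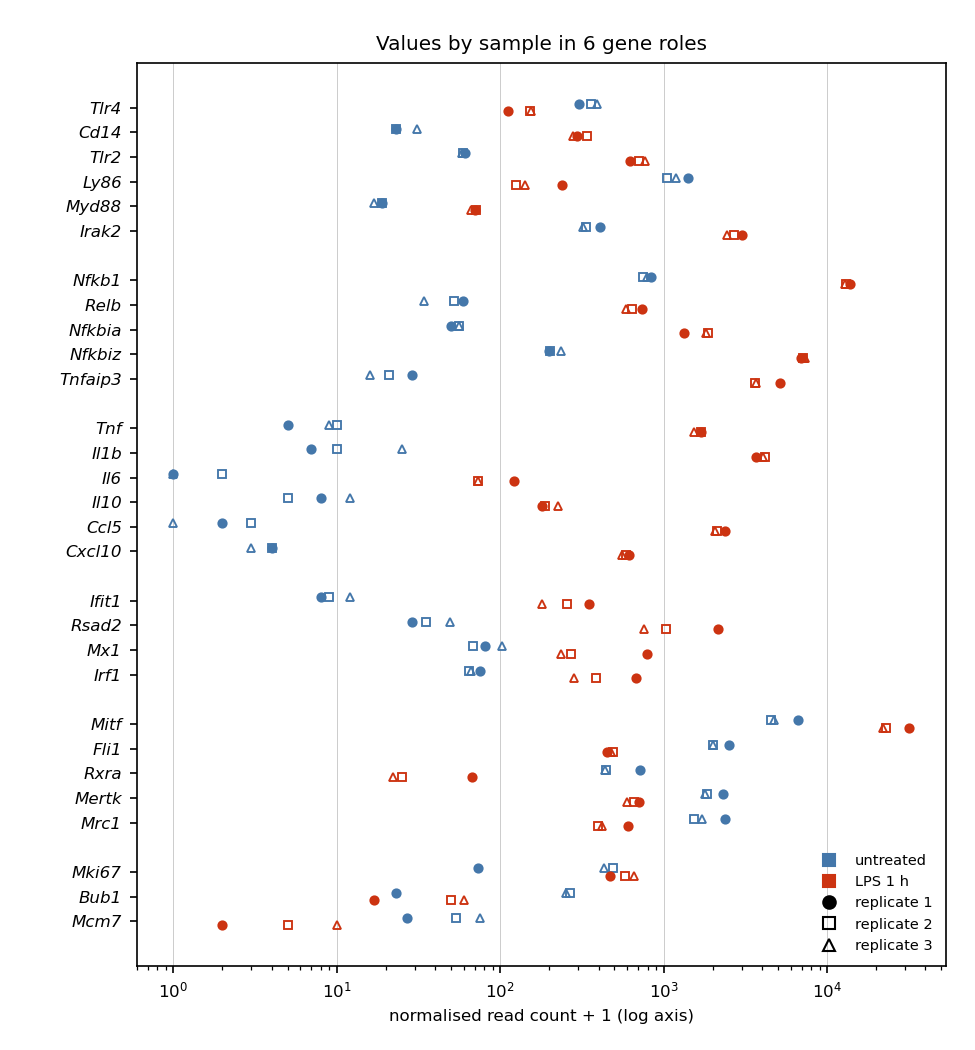
Normalised read count + 1 of each sample on a log axis (x axis) for 29 genes (y axis) grouped by role from top to bottom: receptors and adaptors, NF-κB, cytokines and chemokines, interferon genes, lineage factors and surface receptors, and cell cycle. Blue is untreated and red LPS 1 h, with a symbol per replicate; the groups are far apart for Ccl5, Tnf and Tnfaip3, replicate 1 stands highest for Rsad2, Mx1 and Irf1 after LPS, and it stands lowest for Mki67 and Bub1 in untreated cells.

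Most regulators that limit the response rose with it. Of the negative feedback genes, 17 of 24 tested members were called higher, 4 lower and 3 were not called (24 of 29 tested, median 3.02). By their LPS samples alone 4 of the 24 passed the limit and by their untreated samples alone 1, and of the 17 with at least 10 in all 6 samples, 12 were higher and 2 lower. Socs3, an inhibitor of cytokine receptors, had 3, 2 and 5 in untreated and 451, 336 and 405 in LPS 1 h samples (log2 change 6.57 ± 0.28, adjusted p = 6.14e-07). Of the phosphatases of MAP kinases, Dusp1 had 14, 22 and 39 in untreated and 1224, 1530 and 1800 in LPS 1 h samples (log2 change 5.97 ± 0.33, adjusted p = 2.15e-06). Dusp2 had 1, 1 and 1 in untreated and 177, 102 and 125 in LPS 1 h samples (log2 change 6.05 ± 0.28, adjusted p = 8.81e-07). Dusp5 had 14, 10 and 13 in untreated and 693, 577 and 627 in LPS 1 h samples (log2 change 5.58 ± 0.16, adjusted p = 1.3e-07). Dusp6 fell from 17, 19 and 39 to 3, 4 and 3 (log2 change -2.50 ± 0.37, adjusted p = 0.000456). Dusp10 was not called (12, 23 and 15 against 10, 18 and 10). Among partners of A20, Tnip3 had 226, 265 and 299 in untreated and 12857, 15622 and 19120 in LPS 1 h samples (log2 change 5.90 ± 0.16, adjusted p = 1.06e-07). Tnip1 had 211, 184 and 189 against 4440, 3824 and 3676 (log2 change 4.34 ± 0.11, adjusted p = 7.05e-08). The RNA-degrading family of tristetraprolin was split as well. Zfp36 rose from 188, 194 and 328 to 2305, 1612 and 1825 (log2 change 3.04 ± 0.23, adjusted p = 1.09e-05). Zfp36l1 fell from 187, 194 and 207 to 69, 54 and 61 (log2 change -1.67 ± 0.14, adjusted p = 1.9e-05). Zfp36l2 fell from 138, 113 and 139 to 25, 10 and 13 (log2 change -3.04 ± 0.31, adjusted p = 6.37e-05). The ribonuclease gene Zc3h12c had 220, 165 and 175 against 6524, 6047 and 5952 (log2 change 5.05 ± 0.12, adjusted p = 6.73e-08). Zc3h12a (Regnase-1) had 69, 48 and 73 against 365, 330 and 367 (log2 change 2.49 ± 0.17, adjusted p = 7.17e-06).

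Of the survival and stress genes, 18 of 19 tested members were called higher, 1 lower and none was left uncalled (19 of 22 tested, median 2.38). By their LPS samples alone 4 of these passed the limit, and of the 13 with at least 10 in all 6 samples, 12 were higher and 1 lower. Traf1 had 2, 7 and 6 in untreated and 881, 921 and 960 in LPS 1 h samples (log2 change 7.38 ± 0.34, adjusted p = 9.56e-07). Cflar, which blocks caspase-8, had 429, 371 and 376 in untreated and 4798, 4274 and 4202 in LPS 1 h samples (log2 change 3.49 ± 0.10, adjusted p = 1.1e-07). Bcl2l1 (Bcl-xL) had 391, 349 and 328 in untreated and 2568, 2273 and 2288 in LPS 1 h samples (log2 change 2.74 ± 0.10, adjusted p = 3.35e-07). Genes that promote death rose as well, with 399, 355 and 357 against 3455, 3095 and 3030 for Bcl2l11 (Bim, log2 change 3.10 ± 0.09, adjusted p = 1.41e-07) and 82, 57 and 62 against 840, 976 and 1214 for Fas (log2 change 3.89 ± 0.18, adjusted p = 9.46e-07). Cdkn1a (p21) had 70, 91 and 137 in untreated and 1213, 793 and 779 in LPS 1 h samples (log2 change 3.23 ± 0.26, adjusted p = 1.71e-05). Ddit3 (CHOP) was the member called lower, with 73, 82 and 80 in untreated and 22, 26 and 27 in LPS 1 h samples (log2 change -1.61 ± 0.17, adjusted p = 7.85e-05). Bcl2a1a and Bcl2a1b are near-identical copies between which reads can be split, and Bcl2a1d was listed at 0, so their values (0, 1 and 0 against 129, 107 and 104 and 112, 69 and 78 against 1520, 1268 and 1308) are uncertain.

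Genes of interferon signalling were uneven between the replicates after LPS. Of the interferon regulatory factors and STATs, 9 of 15 tested members were called higher, 1 lower and 5 were not called (15 of 16 tested, median 0.73). Stat5a had 74, 85 and 95 in untreated and 967, 1468 and 1532 in LPS 1 h samples (log2 change 3.93 ± 0.19, adjusted p = 1.12e-06), while its neighbour Stat5b was not called (410, 434 and 425 against 452, 464 and 447). Irf1 had 74, 63 and 65 in untreated and 676, 385 and 280 in LPS 1 h samples (log2 change 2.62 ± 0.29, adjusted p = 8.63e-05). Irf7 had 21, 20 and 25 in untreated and 54, 48 and 27 in LPS 1 h samples (log2 change 0.88 ± 0.29, adjusted p = 0.0246). The call was lost for Irf7 without replicate 1 or 2 and with equal totals. Irf3, which acts directly downstream of Ticam1, was not called (47, 38 and 47 against 41, 50 and 52). Irf2 fell from 1686, 1662 and 1753 to 1238, 1109 and 1037 (log2 change -0.60 ± 0.09, adjusted p = 0.000625). With equal totals 5 of the 15 were higher and 3 lower.

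Of the interferon-stimulated genes, 28 of 31 tested members were called higher, 0 lower and 3 were not called (31 of 35 tested, median 2.17, 2.46 relative to all genes). Through the LPS samples alone 4 of the 31 were tested, and of the 24 with at least 10 in all 6 samples, 22 were higher and 0 lower. Gbp5, a guanylate-binding protein, had 22, 27 and 23 in untreated and 3202, 2877 and 2606 in LPS 1 h samples (log2 change 6.86 ± 0.12, adjusted p = 3.15e-08). Ifih1 (MDA5, a sensor of double-stranded RNA) had 170, 167 and 206 in untreated and 9702, 8746 and 8495 in LPS 1 h samples (log2 change 5.63 ± 0.11, adjusted p = 3.3e-08). Rsad2 (viperin) had 28, 34 and 48 in untreated and 2148, 1036 and 757 in LPS 1 h samples (log2 change 5.02 ± 0.37, adjusted p = 9.67e-06). Ifit1 had 7, 8 and 11 in untreated and 349, 257 and 180 in LPS 1 h samples (log2 change 4.74 ± 0.28, adjusted p = 3e-06). Mx1 had 80, 67 and 102 in untreated and 792, 272 and 233 in LPS 1 h samples (log2 change 2.16 ± 0.42, adjusted p = 0.0022). Isg15 had 3, 1 and 1 in untreated and 60, 52 and 36 in LPS 1 h samples (log2 change 4.29 ± 0.37, adjusted p = 2.5e-05). In each of these 4 genes replicate 1 was the highest of the LPS samples and replicate 3 the lowest. The list summed to 27188, 21054 and 19302 in LPS replicates 1, 2 and 3 and to 2544, 2555 and 3132 in untreated ones. Without replicate 1, 26 of the 31 were called higher and 0 lower, with a median of 1.76. Oas2 was not called (387, 466 and 572 against 328, 425 and 453) except, as lower, with replicate number as a block (adjusted p = 0.0384) or equal totals, nor were Bst2 and Ifi44, and Ifit3 was listed at 0. Of the 31, 28 were higher at 1 h than at 0.5 h and 30 at 2 h than at 1 h. In either step 0 were lower. Of all genes, 30.3% were higher in the first step and 24.8% in the second.

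Enzymes that remodel metabolism and make inflammatory mediators were higher in most cases: 21 of 23 tested members were called higher, 2 lower and none was left uncalled (23 of 27 tested, median 2.99). The limit on low values was passed by 8 of the 23 only through the LPS samples, and of the 13 with at least 10 in all 6 samples, 11 were higher and 2 lower. Beside Acod1 and Slc7a11, Ptgs2 (cyclooxygenase-2) had 1, 3 and 1 in untreated and 334, 392 and 467 in LPS 1 h samples (log2 change 7.29 ± 0.31, adjusted p = 6.54e-07). Ptges, the synthase of prostaglandin E2 that acts after it, had 2, 1 and 1 in untreated and 35, 46 and 39 in LPS 1 h samples (log2 change 4.15 ± 0.30, adjusted p = 9.43e-06). With Hpgd among the largest falls, the genes that make this prostaglandin and the gene that inactivates it moved in opposite directions. Of its receptors in the list of surface receptors, Ptger2 had 36, 30 and 37 in untreated and 141, 285 and 299 in LPS 1 h samples (log2 change 2.71 ± 0.28, adjusted p = 6.85e-05). Ptger4 had 43, 51 and 51 in untreated and 287, 247 and 296 in LPS 1 h samples (log2 change 2.49 ± 0.14, adjusted p = 2.23e-06). Nos2, the inducible nitric oxide synthase, had 1, 0 and 2 in untreated and 35, 23 and 23 in LPS 1 h samples (log2 change 3.92 ± 0.45, adjusted p = 0.000115). Slc7a2, which imports its substrate arginine, had 12, 14 and 11 in untreated and 517, 637 and 612 in LPS 1 h samples (log2 change 5.47 ± 0.15, adjusted p = 1.14e-07). Gch1, which makes its cofactor, had 56, 59 and 70 in untreated and 793, 676 and 677 in LPS 1 h samples (log2 change 3.52 ± 0.13, adjusted p = 3.22e-07). The glycolytic genes Pfkp (log2 change 2.96 ± 0.19, adjusted p = 4.24e-06), Slc2a1 (log2 change 2.51 ± 0.18, adjusted p = 1e-05) and Hk2 (log2 change 1.77 ± 0.23, adjusted p = 0.000216) were higher, with 76, 126 and 113 against 884, 785 and 756, 50, 45 and 46 against 360, 238 and 236 and 99, 85 and 86 against 451, 268 and 241. Sod2, the mitochondrial superoxide dismutase, had 38, 28 and 31 in untreated and 1000, 774 and 774 in LPS 1 h samples (log2 change 4.67 ± 0.16, adjusted p = 2.54e-07). Nfe2l2 (NRF2) rose by a log2 change of 1.02 (not called with equal totals). Hmox1 (103, 68 and 92 against 41, 26 and 17, log2 change -1.68 ± 0.32, adjusted p = 0.00188) and Gclm (99, 86 and 95 against 37, 31 and 33, log2 change -1.45 ± 0.16, adjusted p = 9.03e-05) were called lower.

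Genes of costimulation, adhesion and cytokine receptors were higher in most cases too: 24 of 31 tested members were called higher, 2 lower and 5 were not called (31 of 33 tested, median 1.40). The limit was passed by 4 of them only through the LPS samples, and of the 27 with at least 10 in all 6 samples, 20 were higher and 2 lower. Cd40 had 44, 27 and 43 in untreated and 3426, 2982 and 3035 in LPS 1 h samples (log2 change 6.36 ± 0.19, adjusted p = 1.27e-07). Cd83 had 112, 63 and 67 in untreated and 2990, 2336 and 2297 in LPS 1 h samples (log2 change 5.00 ± 0.22, adjusted p = 7.4e-07). Cd86 had 151, 125 and 100 in untreated and 2033, 866 and 847 in LPS 1 h samples (log2 change 3.20 ± 0.33, adjusted p = 6.34e-05), with replicate 1 well above the other LPS samples. The adhesion gene Icam1 had 56, 62 and 61 in untreated and 2080, 1923 and 1977 in LPS 1 h samples (log2 change 5.04 ± 0.09, adjusted p = 3.15e-08). Vcam1 had 1, 0 and 1 in untreated and 229, 165 and 152 in LPS 1 h samples (log2 change 6.83 ± 0.35, adjusted p = 1.49e-06). Cd44, the hyaluronan receptor, had 1083, 1380 and 1521 in untreated and 21847, 25655 and 26348 in LPS 1 h samples (log2 change 4.22 ± 0.14, adjusted p = 2.34e-07). Csf1r, the receptor of macrophage colony-stimulating factor, fell from 2052, 1814 and 2048 to 753, 997 and 1018 (log2 change -1.11 ± 0.13, adjusted p = 0.000137). Itgam, a chain of a complement receptor, fell from 679, 741 and 754 to 342, 346 and 330 (log2 change -1.09 ± 0.09, adjusted p = 1.73e-05). Ifngr1, Il6st and Csf2rb were not called, with log2 changes of 0.20, 0.11 and -0.10. With equal totals 19 of the 31 were higher and 6 lower.

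The surface receptors of macrophages were divided, with 16 of 35 called higher (45.7%), 12 lower (34.3%) and 7 not called. Of all genes, 27.3% were higher and 41.3% lower. The median of the list was 0.42 (-0.13 with equal totals). Of the 35, 5 were tested only through their LPS values and 1 only through its untreated ones, and of the 27 with at least 10 in all 6 samples, 11 were higher and 10 lower. The C-type lectin Clec4e (Mincle) had 13, 21 and 21 in untreated and 991, 1354 and 1660 in LPS 1 h samples (log2 change 6.11 ± 0.24, adjusted p = 4.46e-07). Msr1 (the class A scavenger receptor) had 551, 810 and 865 in untreated and 5255, 9316 and 10396 in LPS 1 h samples (log2 change 3.45 ± 0.27, adjusted p = 1.41e-05). Gpr84, a receptor for fatty acids, had 1, 1 and 1 in untreated and 65, 89 and 88 in LPS 1 h samples (log2 change 5.34 ± 0.26, adjusted p = 1.19e-06). Marco had 1, 0 and 0 in untreated and 90, 18 and 22 in LPS 1 h samples (log2 change 4.76 ± 0.62, adjusted p = 0.000239), where replicate 1 stood apart. The falls included receptors for dying cells and for homeostatic ligands. Mertk, a kinase that serves the uptake of dying cells, had 2310, 1847 and 1785 in untreated and 704, 654 and 597 in LPS 1 h samples (log2 change -1.60 ± 0.12, adjusted p = 1.24e-05). Mrc1 (the mannose receptor) had 2386, 1541 and 1708 in untreated and 606, 396 and 418 in LPS 1 h samples (log2 change -1.99 ± 0.21, adjusted p = 6.62e-05). Cd163, the receptor of haemoglobin with haptoglobin, had 430, 349 and 383 in untreated and 86, 85 and 95 in LPS 1 h samples (log2 change -2.11 ± 0.12, adjusted p = 2.75e-06). Trem2, a receptor for lipids, had 179, 179 and 195 in untreated and 29, 46 and 31 in LPS 1 h samples (log2 change -2.38 ± 0.19, adjusted p = 1.73e-05). P2ry12 (90, 81 and 76 against 5, 11 and 13, log2 change -3.05 ± 0.33, adjusted p = 8.03e-05) and Cxcr4 (90, 72 and 53 against 7, 9 and 7, log2 change -3.04 ± 0.26, adjusted p = 2.3e-05) had the largest falls of the list. Axl, a receptor of the same family as Mertk, rose from 162, 120 and 118 to 435, 276 and 223 (log2 change 1.18 ± 0.25, adjusted p = 0.00312). Cd36 and Ccr1 were not called, although Cd36 was called higher with replicate number as a block (adjusted p = 0.0213) or without replicate 1 (334, 274 and 356 against 313, 517 and 628).

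**Figure D4:**
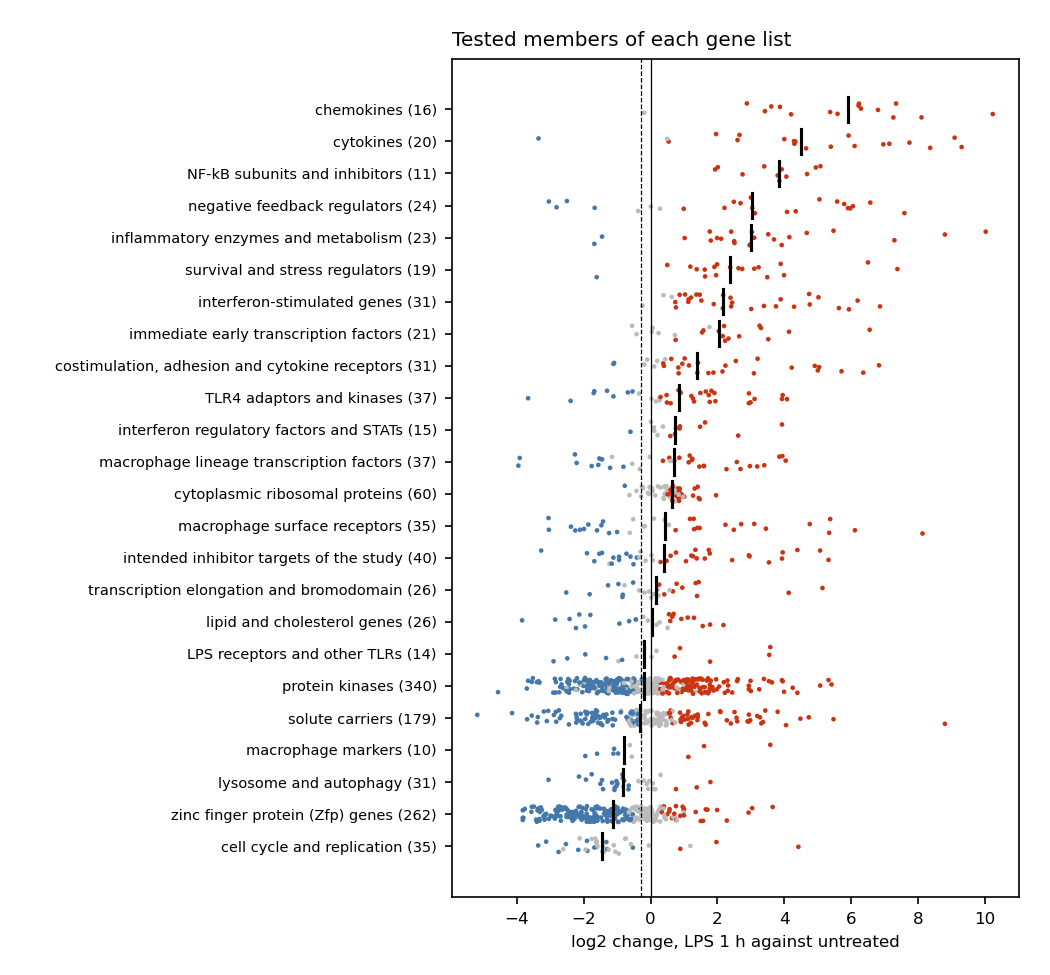
Log2 change of each tested member (points, x axis) of gene lists with at least 10 tested members (y axis, number tested in brackets, members that passed the limit through 1 group included), coloured red where called higher, blue where called lower and grey where not called. Black bars are list medians, from 5.90 for the chemokines to -1.44 for the cell cycle genes, and the dashed line is the median of all genes (-0.29).

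Transcription factors of the macrophage lineage moved in both directions: 20 of 37 tested members were called higher, 11 lower and 6 were not called (37 of 40 tested, median 0.69, 0.12 with equal totals). Of the MiT family, which controls lysosome genes, Mitf had 6672, 4509 and 4717 in untreated and 31690, 23058 and 21868 in LPS 1 h samples (log2 change 2.27 ± 0.19, adjusted p = 2.06e-05). Tfec had 558, 531 and 562 in untreated and 3265, 3596 and 3838 in LPS 1 h samples (log2 change 2.69 ± 0.09, adjusted p = 2.36e-07). Tfeb fell from 366, 359 and 294 to 135, 93 and 78 (log2 change -1.76 ± 0.20, adjusted p = 0.000122) and Tfe3 of the lysosome list was not called (180, 204 and 220 against 180, 243 and 248). Of the ETS factors, Ets2 had 19, 28 and 24 in untreated and 400, 367 and 352 in LPS 1 h samples (log2 change 3.94 ± 0.17, adjusted p = 6.34e-07). Spi1 (PU.1, the main macrophage factor) had 503, 448 and 474 in untreated and 1451, 1409 and 1468 in LPS 1 h samples (log2 change 1.60 ± 0.08, adjusted p = 1.84e-06). Fli1 had 2517, 2010 and 2010 in untreated and 448, 486 and 474 in LPS 1 h samples (log2 change -2.21 ± 0.11, adjusted p = 1.37e-06). Rxra, the partner of many nuclear receptors, had 712, 441 and 434 in untreated and 66, 24 and 21 in LPS 1 h samples (log2 change -3.95 ± 0.41, adjusted p = 6.62e-05), the largest fall of the list. Pparg, the factor of lipid storage, had 986, 742 and 689 in untreated and 397, 339 and 303 in LPS 1 h samples (log2 change -1.21 ± 0.16, adjusted p = 0.000248). Of the CEBP factors Cebpb rose (6, 5 and 4 against 15, 22 and 11) and Cebpa fell (11, 11 and 14 against 5, 4 and 2), both at low values; the call was lost for Cebpb without replicate 2 and for Cebpa without replicate 3. Mef2c had 1924, 1880 and 1980 in untreated and 464, 805 and 928 in LPS 1 h samples (log2 change -1.45 ± 0.23, adjusted p = 0.00067). Mef2a was not called (5160, 5098 and 4921 against 5235, 4689 and 5066).

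Of the lipid and cholesterol genes, 10 of 26 tested members were called higher, 10 lower and 6 were not called (26 of 29 tested, median 0.05, -0.50 with equal totals). Srebf2, the master factor of cholesterol synthesis, had 230, 222 and 230 in untreated and 926, 1156 and 1042 in LPS 1 h samples (log2 change 2.18 ± 0.11, adjusted p = 1.15e-06). Later enzymes of the same pathway fell, with 39, 38 and 41 against 1, 7 and 10 for Lss (log2 change -2.85 ± 0.58, adjusted p = 0.00276) and 16, 23 and 29 against 3, 3 and 4 for Dhcr7 (log2 change -2.42 ± 0.31, adjusted p = 0.000227), although Hmgcs1, which acts early in it, rose by a log2 change of 1.56. Of the sterol exporters, Abca1 rose from 2734, 1967 and 1984 to 5139, 3831 and 3656 (log2 change 0.92 ± 0.17, adjusted p = 0.00174). Abcg1 fell from 194, 177 and 172 to 114, 32 and 26 (log2 change -1.96 ± 0.48, adjusted p = 0.00697), calls that were lost with equal totals for Abca1 and without replicate 2 or 3 for Abcg1. Without replicate 2, 6 genes of the list were higher and 6 lower, and without replicate 3, 6 were lower. Abca9 showed the largest fall, from 358, 168 and 233 to 17, 13 and 18 (log2 change -3.84 ± 0.28, adjusted p = 9.63e-06).

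Of the genes of the lysosome and of autophagy, 3 of 31 tested members were called higher, 18 lower and 10 were not called (31 of 31 tested, 58.1% lower against 41.3% of all genes, median -0.82, -0.53 relative to all genes). Lipa of the lipid list, the acid lipase of lysosomes, had 1542, 1168 and 1114 in untreated and 306, 317 and 243 in LPS 1 h samples (log2 change -2.13 ± 0.16, adjusted p = 9.76e-06). Ctss (cathepsin S) had 356, 456 and 458 in untreated and 245, 192 and 188 in LPS 1 h samples (log2 change -1.02 ± 0.15, adjusted p = 0.000456). The largest fall was that of Tpcn1, an ion channel of endosomes and lysosomes, with 600, 702 and 776 in untreated and 85, 81 and 81 in LPS 1 h samples (log2 change -3.05 ± 0.12, adjusted p = 4.61e-07). The exceptions were Ctsz (275, 179 and 179 against 762, 681 and 709, log2 change 1.79 ± 0.17, adjusted p = 4.22e-05), Ctsc (1400, 1535 and 1773 against 3469, 4337 and 4501, log2 change 1.38 ± 0.13, adjusted p = 4.01e-05) and Becn1 (83, 97 and 71 against 158, 129 and 137, log2 change 0.76 ± 0.16, adjusted p = 0.00314), which rose, the last not with equal totals. Ctsb and Lamp1 were not called (-0.07 and 0.07). With median-of-ratios factors 6 were higher and 16 lower, and with equal totals 2 and 27.

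In the machinery of transcription elongation and among acetyl-lysine readers and writers, 10 of 26 tested members were called higher, 7 lower and 9 were not called (26 of 29 tested, median 0.15, -0.43 with equal totals). Ell2, a subunit of the super elongation complex, had 405, 382 and 336 in untreated and 6067, 6875 and 6774 in LPS 1 h samples (log2 change 4.13 ± 0.10, adjusted p = 7.26e-08), whereas its relative Ell had 250, 217 and 280 in untreated and 122, 171 and 129 in LPS 1 h samples (log2 change -0.83 ± 0.16, adjusted p = 0.00224). The histone demethylase gene Kdm6b (JMJD3) had 24, 20 and 25 in untreated and 949, 751 and 831 in LPS 1 h samples (log2 change 5.14 ± 0.14, adjusted p = 1.08e-07). Of the BET proteins Brd2 (105, 150 and 128 against 303, 325 and 344) rose by a log2 change of 1.35, while Brd3 fell (111, 107 and 107 against 46, 49 and 39, log2 change -1.27 ± 0.15, adjusted p = 0.000138). The related acetyltransferases moved apart, with 1634, 1436 and 1329 against 1795, 1732 and 1708 for Crebbp (log2 change 0.26 ± 0.10, adjusted p = 0.0453) and 849, 939 and 990 against 207, 288 and 296 for Ep300 (log2 change -1.82 ± 0.15, adjusted p = 1.84e-05). Cdk9, the kinase of P-TEFb, was not called (71, 49 and 43 against 67, 46 and 51). The balance of this list followed the scaling, with 14 higher and 5 lower by median-of-ratios factors and 6 and 12 by equal totals. Crebbp was called lower with equal totals (-0.33) and was not called without replicate 2 or 3.

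For the cell cycle and replication genes, replicate number and treatment have to be read together. The 40 genes of the list summed to 1320 in untreated replicate 1 and to 5442 and 5461 in replicates 2 and 3, and to 1539, 2629 and 2976 after LPS. Bub1, a mitotic checkpoint kinase, had 22, 268 and 252 in untreated and 16, 49 and 59 in LPS 1 h samples and was not called (log2 change -1.65 ± 0.93, adjusted p = 0.148). Neither was Top2a, a topoisomerase of dividing cells, with 38, 488 and 430 in untreated and 39, 193 and 217 in LPS 1 h samples (log2 change -0.76 ± 1.02, adjusted p = 0.526). With replicate number as a block the adjusted p was 0.00192 for Bub1 and 0.0146 for Top2a. Of the 35 tested, 3 were called higher (8.57%), 11 lower (31.4%) and 21 were not called (median -1.44). Of all genes, 27.3% were higher and 41.3% lower. With replicate number as a block 4 of the 35 were higher and 29 lower, against 3501 and 5338 of all 11900 genes. In this list of the 18 with at least 10 in all 6 samples, 2 were higher and 6 lower. Without replicate 1, 3 were higher and 31 lower, without untreated replicate 1 alone 26 were lower, and without replicate 3, 7 were lower. Falls called in either way included those of Mcm7, Ccnd3 and Dna2. Mcm7, a helicase subunit of replication, had 26, 53 and 74 in untreated and 1, 4 and 9 in LPS 1 h samples (log2 change -3.36 ± 0.61, adjusted p = 0.00148). Ccnd3, a cyclin of the G1 phase, had 210, 183 and 233 in untreated and 33, 24 and 34 in LPS 1 h samples (log2 change -2.75 ± 0.18, adjusted p = 5.69e-06). Dna2, a nuclease of replication, had 26, 80 and 75 in untreated and 3, 8 and 6 in LPS 1 h samples (log2 change -3.12 ± 0.49, adjusted p = 0.000647). Ccnd2 rose, with 8, 7 and 10 in untreated and 241, 149 and 213 in LPS 1 h samples (log2 change 4.42 ± 0.24, adjusted p = 1.97e-06). E2f8, an atypical repressor of the E2F family, rose with 13, 56 and 116 in untreated and 139, 199 and 201 in LPS 1 h samples (log2 change 1.97 ± 0.66, adjusted p = 0.0276, not called without replicate 2 or with equal totals).

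Of 340 tested protein kinase genes, 113 were called higher (33.2% against 27.3% of all genes), 134 lower (39.4% against 41.3%) and 93 were not called, and their median log2 change was -0.20 (0.09 relative to all genes, and 0.07 with median-of-ratios factors). With median-of-ratios factors 133 were higher and 111 lower, and with equal totals 75 and 195. By their LPS samples alone 6 of the 340 passed the limit, Met among them, and by their untreated samples alone 12, Pdk1 among them. Of the 284 with at least 10 in all 6 samples, 101 were higher and 110 lower. Among kinases with a mean of at least 50 the largest rises were those of Src, Met, Jak2, Pim1 and Cdk6. Src, the founding member of its family of tyrosine kinases (chr2:157424293-157471838), had 12, 5 and 3 in untreated and 511, 194 and 239 in LPS 1 h samples (log2 change 5.41 ± 0.49, adjusted p = 3.11e-05), with replicate 1 above the other LPS samples. Met, the receptor of hepatocyte growth factor (chr6:17463957-17573980), had 6, 3 and 6 in untreated and 232, 250 and 212 in LPS 1 h samples (log2 change 5.32 ± 0.26, adjusted p = 1.23e-06). Jak2, which signals from cytokine receptors (chr19:29251803-29313095), had 138, 168 and 176 in untreated and 4717, 5554 and 6020 in LPS 1 h samples (log2 change 5.07 ± 0.13, adjusted p = 8.06e-08). Pim1, a kinase that serves cell survival, had 20, 26 and 29 in untreated and 719, 462 and 474 in LPS 1 h samples (log2 change 4.39 ± 0.21, adjusted p = 1.19e-06). The cell cycle kinase Cdk6 had 834, 548 and 568 in untreated and 12661, 12023 and 11679 in LPS 1 h samples (log2 change 4.25 ± 0.16, adjusted p = 3.49e-07). Of the other Janus kinases in the list of targets below, Jak1 had 1238, 1014 and 1105 against 4609, 2963 and 2978 (log2 change 1.62 ± 0.18, adjusted p = 8.59e-05). Tyk2 had 220, 256 and 251 against 351, 442 and 448 (log2 change 0.76 ± 0.13, adjusted p = 0.000962, not called with equal totals). At the other end stood Pdk1, Map2k6 (given above), Brsk1, Chek2 and Mknk2. Pdk1, a kinase of pyruvate dehydrogenase, had 49, 50 and 51 in untreated and 3, 2 and 4 in LPS 1 h samples (log2 change -3.70 ± 0.28, adjusted p = 1.11e-05). Brsk1 had 101, 112 and 107 in untreated and 10, 9 and 6 in LPS 1 h samples (log2 change -3.55 ± 0.23, adjusted p = 5.1e-06). The checkpoint kinase Chek2 had 84, 126 and 149 in untreated and 6, 10 and 13 in LPS 1 h samples (log2 change -3.52 ± 0.32, adjusted p = 3.24e-05). Mknk2, a kinase of the translation factor eIF4E, had 115, 117 and 135 in untreated and 10, 9 and 15 in LPS 1 h samples (log2 change -3.35 ± 0.23, adjusted p = 6.69e-06). Met, Pim1, Cdk6, Map2k6 and Brsk1 overlap a gene on the other strand.

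The 42 intended targets of the inhibitors of the study include genes that the study picked because these samples showed regulation, so their directions are not independent evidence. Of the 40 tested, 21 were called higher (52.5%, against 27.3% of all genes), 13 lower (32.5%, against 41.3%) and 6 were not called. Their median was 0.39 (-0.19 with equal totals). By their LPS samples alone 2 of the 40 passed the limit on low values, Pdgfrb among them, and so had to be higher. Of the 36 with at least 10 in all 6 samples, 18 were higher and 13 lower. Camkk2 had 185, 170 and 165 in untreated and 1009, 891 and 941 in LPS 1 h samples (log2 change 2.44 ± 0.10, adjusted p = 4.82e-07). Pdgfrb had 3, 0 and 2 in untreated and 24, 29 and 24 in LPS 1 h samples (log2 change 3.54 ± 0.51, adjusted p = 0.00042). Egfr had 10, 7 and 4 in untreated and 31, 15 and 14 in LPS 1 h samples (log2 change 1.38 ± 0.42, adjusted p = 0.0184, not called without replicate 2 or 3 or with equal totals). Btk fell from 242, 233 and 235 to 54, 64 and 71 (log2 change -1.90 ± 0.14, adjusted p = 9.03e-06). Nqo2, a quinone reductase and not a kinase, fell from 131, 161 and 161 to 11, 17 and 17 (log2 change -3.27 ± 0.22, adjusted p = 5.86e-06). Mapk14 (p38α) was called higher by a log2 change of 0.30 with 917, 867 and 887 in untreated and 1036, 1201 and 1058 in LPS 1 h samples, a change that was called lower with equal totals (-0.28) and lost its call without replicate 2 or 3. Mapk8 (JNK1) was not called (log2 change -0.34 ± 0.13, adjusted p = 0.0518), but was called lower with replicate number as a block (adjusted p = 0.0118).

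Gene families with many members are given with the shares of all genes. Of 262 tested zinc finger genes with Zfp symbols, 24 were called higher (9.16%) and 165 lower (63.0%, against 27.3% and 41.3% of all genes), with a median of -1.11 (-0.82 relative to all genes). Under equal totals 13 were higher and 215 lower, and of the 113 with a mean of at least 50, 20 were higher and 54 lower. The untreated samples alone brought 49 of the 262 past the limit on low values, Zfp652 and Zfp94 among them. The LPS samples alone brought 3 past it, Zfp811 among them. Of the 168 with at least 10 in all 6 samples, 22 were higher and 82 lower. Zfp652 had 130, 95 and 100 in untreated and 6, 7 and 7 in LPS 1 h samples (log2 change -3.82 ± 0.22, adjusted p = 2.5e-06). Zfp94 went from 10, 16 and 14 to 0 in every LPS sample (adjusted p = 2.97e-05). Zfp811 had the largest rise with 4, 1 and 1 in untreated and 50, 29 and 25 in LPS 1 h samples (log2 change 3.65 ± 0.46, adjusted p = 0.000181). Of the 179 solute carriers, 48 were higher (26.8%) and 70 lower (39.1%), shares near those of all genes (27.3% and 41.3%). Their median was -0.31, and with median-of-ratios factors 66 were higher and 58 lower. Slc44a1, a choline transporter, had 436, 440 and 497 in untreated and 10822, 9917 and 9913 in LPS 1 h samples (log2 change 4.48 ± 0.09, adjusted p = 3.87e-08). Slc40a1 (ferroportin, the iron exporter) had 630, 475 and 431 in untreated and 40, 24 and 22 in LPS 1 h samples (log2 change -4.14 ± 0.25, adjusted p = 3.2e-06). Of the 60 genes of cytoplasmic ribosomal proteins, 27 were called higher, 1 lower and 32 not (median 0.65), but 4 higher and 7 lower with equal totals, 8 higher without replicate 2 and 9 higher without replicate 3. Rpl24 had the largest rise with 28, 39 and 24 in untreated and 111, 118 and 127 in LPS 1 h samples (log2 change 1.96 ± 0.20, adjusted p = 6.68e-05). Rpl3 was the member called lower with 112, 133 and 101 in untreated and 57, 70 and 74 in LPS 1 h samples (log2 change -0.77 ± 0.17, adjusted p = 0.00371).

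Genes that are not protein-coding shared in the response. Of 1781 non-coding RNA genes, 31.4% were called higher and 32.5% lower (median log2 change 0.03), against 26.3% and 43.3% of 9922 protein-coding genes (median -0.37), and of 29 snoRNA genes 16 were higher and 0 lower. Genes that overlap another on the same strand, 1870 of all tested, were kept in these counts, and their reads can be shared. What part shared reads have in the snoRNA count was not tested. The largest rises were taken among called genes of any type other than protein-coding, with a mean of at least 50. No annotated gene overlapped them, and the replicates of the groups did not overlap. 1110002J07Rik (chr10:66912190-66920384) had 3, 2 and 1 in untreated and 172, 96 and 124 in LPS 1 h samples (log2 change 5.47 ± 0.34, adjusted p = 4.17e-06). Gm30073 (chr10:87777237-87798372) had 4, 2 and 2 in untreated and 59, 122 and 139 in LPS 1 h samples (log2 change 4.83 ± 0.39, adjusted p = 1.56e-05). Gm33312, annotated as a pseudogene, had 2, 1 and 1 in untreated and 82, 53 and 53 in LPS 1 h samples (log2 change 4.77 ± 0.32, adjusted p = 5.55e-06). Gm30474 had 3, 3 and 1 in untreated and 114, 73 and 61 in LPS 1 h samples (log2 change 4.67 ± 0.38, adjusted p = 1.63e-05). Gm34746 had 25, 43 and 46 in untreated and 698, 953 and 1126 in LPS 1 h samples (log2 change 4.59 ± 0.26, adjusted p = 2.5e-06). In all 5 the lowest LPS sample stood above the highest untreated one, as the rule for naming them required. The largest falls came next. Gm34758 had 54, 82 and 79 in untreated and 6, 13 and 5 in LPS 1 h samples (log2 change -3.09 ± 0.36, adjusted p = 0.000119). Kantr had 150, 212 and 178 in untreated and 16, 28 and 23 in LPS 1 h samples (log2 change -2.98 ± 0.23, adjusted p = 1.47e-05). 2810403D21Rik had 105, 139 and 129 against 16, 16 and 15 (log2 change -2.90 ± 0.18, adjusted p = 4.06e-06). LOC115489886 had 98, 97 and 115 against 17, 14 and 15 (log2 change -2.68 ± 0.18, adjusted p = 6.39e-06). 5530601H04Rik had 127, 162 and 159 against 17, 29 and 24 (log2 change -2.65 ± 0.22, adjusted p = 2.09e-05). Kantr, 2810403D21Rik and 5530601H04Rik lie on the X chromosome. Larger changes were fitted for non-coding genes on the other strand of strongly induced genes, such as Gm41235 at Acod1 (0, 1 and 1 against 827, 1142 and 1010) and Il1bos at Il1b (2, 0 and 8 against 1135, 1266 and 1191), where reads of the pair cannot be told apart; both were chosen after their values were seen.

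The share of falls varied more with gene length than the share of rises. In protein-coding genes under 10 kb, 24.9% were higher and 33.3% lower. For 10 to 30 kb the shares were 23.5% and 45.6%, for 30 to 100 kb 29.2% and 46.2%, for 100 to 300 kb 28.6% and 47.8%, and above 300 kb 27.8% and 25.1%. The 255 genes above 300 kb had a median log2 change of 0.03, against -0.37 for all protein-coding genes. Protein-coding genes that rose by at least 16-fold had a median length of 19.2 kb (180 genes) and those that fell by at least 16-fold 36.7 kb (47 genes), with 27 kb for all 9922.

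The change between 0.5 and 1 h was tested in 1 fit of all 27 samples. That fit takes 1 spread per gene over all 9 groups, including groups that are not compared and may have values near 0. Compared with 0.5 h, 3604 genes were higher at 1 h (30.3%) and 3414 lower (28.7%). The largest steps up were those of Adamts4, Ptch1, Tspan3, Il1r1 and Slc13a3. Adamts4, a protease of the extracellular matrix, went from 9, 4 and 6 to 159, 152 and 182 (log2 difference 4.55 ± 0.44, adjusted p = 6.7e-09). Ptch1, the receptor of Hedgehog, went from 13, 10 and 14 to 323, 263 and 238 (log2 difference 4.37 ± 0.20, adjusted p = 6.18e-14). Tspan3, a tetraspanin, had 15, 10 and 7 and then 295, 194 and 192 (log2 difference 4.32 ± 0.35, adjusted p = 4.92e-10). Slc13a3, a carrier of dicarboxylates, had 6, 9 and 5 and then 146, 106 and 99 (log2 difference 3.96 ± 0.43, adjusted p = 3.86e-08). Their untreated values were 3, 3 and 4 for Adamts4, 29, 25 and 39 for Ptch1, 26, 15 and 19 for Tspan3 and 6, 3 and 2 for Slc13a3, so at 0.5 h no value of these genes was above 15, and those of Ptch1 lay under the untreated ones. The largest steps down were those of Angptl1, Egr1 (given above), Slco2b1, Nt5dc2 and Ica1l. Angptl1 went from 54, 47 and 50 at 0.5 h to 1, 2 and 2 at 1 h (log2 difference -4.29 ± 0.26, adjusted p = 3.07e-12). Slco2b1 went from 156, 127 and 181 to 7, 7 and 12 (log2 difference -4.03 ± 0.28, adjusted p = 3.24e-11). Nt5dc2 went from 337, 165 and 139 to 16, 10 and 12 (log2 difference -3.89 ± 0.33, adjusted p = 1.14e-09) and Ica1l from 85, 76 and 56 to 8, 4 and 2 (log2 difference -3.82 ± 0.31, adjusted p = 4.48e-10). Slc13a3, Angptl1, Slco2b1 and Nt5dc2 overlap a gene on the other strand, whose reads cannot be told apart. Among induced genes, Cxcl2 had 817, 1017 and 1068 at 0.5 h and was lower at 1 h (log2 difference -1.15 ± 0.46, adjusted p = 0.0365), while Ccl5 had 468, 359 and 232 at 0.5 h and was higher at 1 h (log2 difference 2.68 ± 0.52, adjusted p = 0.000124). Jak2 had 698, 960 and 562 and was higher at 1 h (log2 difference 2.90 ± 0.17, adjusted p = 1.69e-12), and for Tnf (1881, 2527 and 2027) the difference was not called (log2 difference -0.38 ± 0.55, adjusted p = 0.574). The 1 h values of Tnf (1685, 1697 and 1538) nevertheless all lay under those at 0.5 h. In the fit of 6 samples the standard error of Tnf was 0.25.

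Between 1 and 2 h, 2948 genes were higher at 2 h (24.8%) and 3135 lower (26.3%). The interferon-stimulated gene Ifit1 reached 1682, 1542 and 1687 at 2 h (log2 difference 2.69 ± 0.31, adjusted p = 1.06e-07). Of the macrophage lineage transcription factors 5 of 37 were higher at 2 h and 23 lower, and of the negative feedback genes 3 of 24 were higher and 13 lower. Mitf had 25212, 16687 and 17821 at 2 h (log2 difference -0.36 ± 0.24, adjusted p = 0.213) and Cd44 7427, 5054 and 5972 (log2 difference -2.01 ± 0.20, adjusted p = 1.19e-08).

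A set of 614 genes (5.16%) was highest at 1 h, higher than in untreated cells and than at each of 0.5, 2 and 4 h, and 695 genes (5.84%) were lowest at 1 h by the same rule. These counts depend on the replicates: without replicate 2 they were 387 and 447, and without replicate 3 363 and 421. Il1r1, the signalling receptor of interleukin-1, showed the sharpest maximum, with 3, 0 and 3 in untreated cells and 128, 113 and 156 at 1 h. Its values were 4, 5 and 10 at 0.5 h, and later 9, 5 and 17 (2 h) and 6, 5 and 6 (4 h). Cd109, a membrane co-receptor of TGF-β, had 7, 22 and 11 before LPS and 20, 43 and 27 at 0.5 h. It reached 202, 317 and 323 at 1 h and fell back to 13, 10 and 11 at 2 h. For Niban2 the values were 4012, 3315 and 3123 at 1 h. At 0.5 h they were 396, 513 and 296, and at 2 h 450, 288 and 256. Sgms2, a sphingomyelin synthase, rose from 59, 25 and 20 at 0.5 h to 434, 321 and 287, and went back to 91, 24 and 34 by 2 h. Niban2 and Sgms2 overlap genes on the other strand, whose reads cannot be told apart. LOC115487194, which reached 243, 234 and 231 at 1 h and no more than 53 elsewhere in the LPS course, overlaps Lrrfip2 on the same strand and shares its reads.

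The genes with the sharpest minimum had higher values again at 2 h. Ikzf2, a zinc finger factor of the Ikaros family, had 213, 169 and 167 in untreated and 20, 18 and 13 in LPS 1 h samples (log2 change -3.37 ± 0.21, adjusted p = 3.96e-06). Its values were 161, 106 and 138 at 0.5 h, and later 209, 208 and 220 (2 h) and 190, 155 and 172 (4 h). Marchf1, a ubiquitin ligase that removes MHC class II from the surface, went from 1113, 1101 and 1128 to 196, 59 and 67 at 1 h, with replicate 1 above the others, and to 3882, 3270 and 3966 at 4 h. Marchf1 overlaps a gene on the same strand and further genes on the other strand. Bicra, a subunit of a chromatin remodelling complex, had 29, 24 and 22 at 1 h, against 191, 220 and 233 before LPS and 114, 202 and 148 at 2 h. The non-coding gene Gm38948, with 5, 3 and 5 at 1 h, overlaps Bicra on the other strand. Gm21057, with 25, 18 and 16 at 1 h and 153, 127 and 153 at 2 h, overlaps Zfp710 on the other strand. Ly86 of the receptor list showed a like course, with 237, 124 and 141 at 1 h between 1147, 723 and 931 at 0.5 h and 2181, 2046 and 2107 at 2 h; it was chosen after its values were seen.

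**Figure D5:**
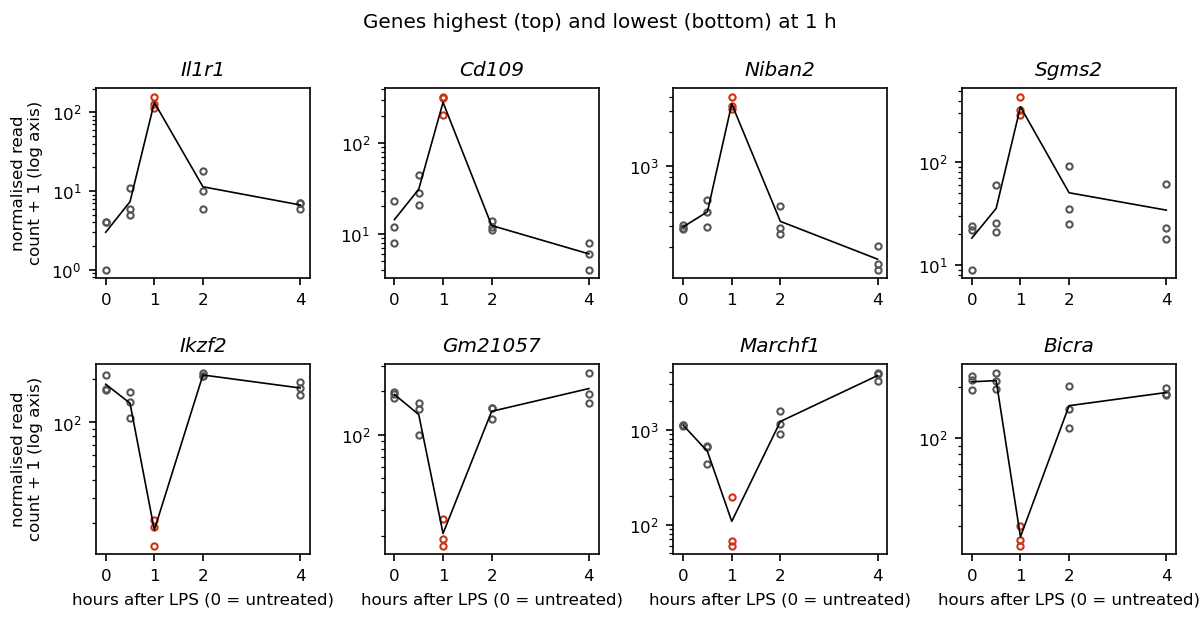
Normalised read count + 1 (y axis, log axis) against hours after LPS, with untreated cells at 0 (x axis), for 4 genes highest at 1 h (top) and 4 lowest at 1 h (bottom). Circles are samples (3 per time, red at 1 h) and lines join the means; in all 8 genes the 1 h samples do not overlap those of any other time.

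Set against IL-4 at the same time, 3125 genes were higher after LPS (26.3%) and 4975 lower (41.8%). All 11 NF-κB genes, 15 of 16 chemokine genes, 19 of 20 cytokine genes and 27 of 31 interferon-stimulated genes were higher after LPS than after IL-4, counts that include the members tested only because of their LPS values. Tnf had 4, 4 and 1 after IL-4 (log2 difference 8.80 ± 0.55, adjusted p = 1.7e-12), Acod1 2, 4 and 2 (log2 difference 10.51 ± 0.52, adjusted p = 3.04e-14) and Nfkbia 60, 47 and 31 (log2 difference 5.19 ± 0.24, adjusted p = 8.57e-15). Of the genes induced by LPS, some also had raised values after IL-4: Il1r1 had 57, 70 and 82, Jak2 506, 632 and 655 and Slc7a2 429, 530 and 495, and Cd44 had 4932, 5522 and 5941. Jak2 (log2 difference 3.18 ± 0.17, adjusted p = 8.94e-14) and Cd44 (log2 difference 2.17 ± 0.20, adjusted p = 2.07e-09) were higher after LPS than after IL-4, while the difference was not called for Il1r1 (log2 difference 0.92 ± 0.46, adjusted p = 0.0806) and Slc7a2 (log2 difference 0.28 ± 0.14, adjusted p = 0.0814). Genes that fell after LPS and stood high after IL-4 included Mrc1, with 16253, 14498 and 16212 after IL-4 (log2 difference -5.07 ± 0.16, adjusted p = 1.85e-17), Gpr155, with 522, 508 and 480 (log2 difference -6.48 ± 0.36, adjusted p = 1.82e-13), and Pparg, with 1977, 1645 and 1563 (log2 difference -2.32 ± 0.20, adjusted p = 5.56e-10). Over all genes, 416 were higher after LPS and lower after IL-4 than in every untreated sample with the direct difference called, and 593 were lower after LPS and higher after IL-4. Both stimuli were compared with the same untreated samples in these counts.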

How the data were processed

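Chromatin-associated RNA of BMDMs was sequenced by the authors with random-primed Smart-seq2 libraries (single-end reads). Per the submitters' processing notes and the study's methods, reads were aligned to mm10 with TopHat2 2.1.1, reads with several hits or in blacklisted regions were removed (bedtools 2.29.2), and the rest were counted per RefSeq gene (GRCm38.p6). The deposited values are counts that the authors scaled on invariant genes and rounded, so they were treated as a score: no count model was run, the depth is unknown, and precision is judged from the replicates. Whether the replicates are separate cultures is not given in the sources used here, so p-values measure the spread between these samples.

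The comparison used limma 3.58.1 (R 4.3.3) on log2(value + 1), with its empirical Bayes variances following the mean level, and p-values adjusted by Benjamini and Hochberg's method over the 11900 genes (threshold 0.05). This fit held the 6 samples, and the other contrasts came from 1 fit of all 27 samples, with 1 spread per gene over all groups. The impulse model of the study was not run. Deviations of samples with the same replicate number correlated between the groups (r = 0.504, 0.22 and 0.317 across genes). Replicate 2 of one group and replicate 3 of the other correlated as well (r = 0.269 and 0.282). Replicate 1 correlated negatively with the other numbers. The values thus set replicate 1 apart but do not tell how replicates 2 and 3 pair, and a block by number was tried as an alternative. The alternatives were other added counts, filters and scalings (median-of-ratios factors, equal totals), left-out replicates and replicates 2 and 3 averaged. Replicates 2 and 3 were not identical in either group and were counted separately as labelled, since counting noise cannot be computed from scaled values. With replicates 2 and 3 averaged, 2691 genes were called higher and 4023 lower than untreated. Averaging also leaves fewer samples. On simulated data for the 6-sample comparison, 83% of genes changed by a log2 value of 1 and 95% of those changed by 2 were called. There were 7 false calls among 11900 genes. The simulation had independent samples with a common SD, no distance of replicate 1 and 100 changed genes of each size. In the data 68.6% of genes were called and replicate 1 stood apart, so these rates need not hold for them.

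The genes compared, the gene lists and the rules were chosen with earlier results of these data known. The named genes were the 10 largest rises and falls of protein-coding genes (mean of at least 50 in the higher group, groups without overlap, no other gene on the same strand), the 5 largest rises and falls of other genes, of kinases, of the step from 0.5 to 1 h and of maxima and minima at 1 h, and in each list the extremes, the members that define its role and members not called. A few genes and 1 list are not reported here.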

Additional observations from a re-analysis of the deposited data

Results flagged for a closer look

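Some genes were on opposite sides of the untreated samples at 0.5 and 1 h of LPS, with all 3 replicates of either group outside the untreated range, a mean change of at least 2-fold in both and a called difference between the times. Over all tested genes this held for 37 genes that were higher at LPS 1 h and lower in the other group and for 13 the other way round. Only genes already named above are shown. Ptch1 had 29, 25 and 39 in untreated cells, 323, 263 and 238 at LPS 1 h and 13, 10 and 14 at 0.5 h (log2 difference 4.37 ± 0.20, adjusted p = 6.18e-14). Ica1l had 30, 21 and 21 in untreated cells, 8, 4 and 2 at LPS 1 h and 85, 76 and 56 at 0.5 h (log2 difference -3.82 ± 0.31, adjusted p = 4.48e-10). Nt5dc2 had 98, 99 and 86 in untreated cells, 16, 10 and 12 at LPS 1 h and 337, 165 and 139 at 0.5 h (log2 difference -3.89 ± 0.33, adjusted p = 1.14e-09). Nt5dc2 overlaps a gene on the other strand, whose reads cannot be told apart.

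Between 1 h of LPS and 1 h of IL-4 the same limits were met by more genes. Over all tested genes this held for 97 genes that were higher at LPS 1 h and lower in the other group and for 99 the other way round. Only genes already named above are shown, so they do not describe these sets as a whole. Clec4e had 13, 21 and 21 in untreated cells, 991, 1354 and 1660 at LPS 1 h and 9, 6 and 9 at IL-4 (log2 difference 7.20 ± 0.27, adjusted p = 2.4e-16). Dusp1 had 14, 22 and 39 in untreated cells, 1224, 1530 and 1800 at LPS 1 h and 6, 5 and 5 at IL-4 (log2 difference 7.89 ± 0.37, adjusted p = 1.03e-14). Dusp5 had 14, 10 and 13 in untreated cells, 693, 577 and 627 at LPS 1 h and 7, 2 and 3 at IL-4 (log2 difference 7.11 ± 0.36, adjusted p = 5.79e-14). Hk2 had 99, 85 and 86 in untreated cells, 451, 268 and 241 at LPS 1 h and 38, 35 and 25 at IL-4 (log2 difference 3.22 ± 0.29, adjusted p = 1.11e-09). Rsad2 had 28, 34 and 48 in untreated cells, 2148, 1036 and 757 at LPS 1 h and 26, 13 and 14 at IL-4 (log2 difference 6.06 ± 0.45, adjusted p = 3.96e-11). Tlr2 had 60, 58 and 57 in untreated cells, 620, 709 and 767 at LPS 1 h and 18, 20 and 11 at IL-4 (log2 difference 5.37 ± 0.27, adjusted p = 3.64e-14). The other named genes higher after LPS and lower after IL-4 follow with their log2 differences. They were Il1b (10.31), Irak2 (4.10), Nfe2l2 (2.41), Nfkbiz (7.16), Slc44a1 (5.69) and Tnfsf9 (8.18). Gpr155 had 191, 175 and 192 in untreated cells, 5, 5 and 4 at LPS 1 h and 522, 508 and 480 at IL-4 (log2 difference -6.48 ± 0.36, adjusted p = 1.82e-13). Ly86 had 1413, 1047 and 1186 in untreated cells, 237, 124 and 141 at LPS 1 h and 2998, 2083 and 2426 at IL-4 (log2 difference -3.94 ± 0.20, adjusted p = 4.86e-14). Mrc1 had 2386, 1541 and 1708 in untreated cells, 606, 396 and 418 at LPS 1 h and 16253, 14498 and 16212 at IL-4 (log2 difference -5.07 ± 0.16, adjusted p = 1.85e-17). Pparg had 986, 742 and 689 in untreated cells, 397, 339 and 303 at LPS 1 h and 1977, 1645 and 1563 at IL-4 (log2 difference -2.32 ± 0.20, adjusted p = 5.56e-10).

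Members of the same group of untreated samples enter both sides of each statement, and the tested value is the direct difference between the stimulated groups.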

How the results depend on the processing

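The counts of genes called moved by more than 1.5 times in few cases. With equal totals, 1990 genes were higher than untreated, 1324 of them by at least 2-fold, and 2048 were higher than after IL-4. Among genes with at least 10 in all 6 samples, 3192 were lower than untreated, 1923 by at least 2-fold, and 3271 were lower than after IL-4. Among genes with a mean of at least 50, these counts were 2483, 1527 and 2496, with 2071 genes lower at 1 h than at 0.5 h, 1841 higher at 2 h than at 1 h and 438 lowest at 1 h. Both filters test fewer genes. The genes lowest at 1 h numbered 457 with replicates 2 and 3 averaged and 415 when only the compared groups were fitted. The cause of the other shifts was not tested.

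With replicate number as a block, 3501 genes were higher and 5338 lower than untreated. The correlations set replicate 1 apart but do not tell how replicates 2 and 3 pair. The block ended no call of a gene named above and added 8. Leaving out 1 replicate number or, against untreated, 1 sample gave 2504 to 3369 genes higher and 3738 to 5293 lower, 1975 to 2098 and 3168 to 3728 by at least 2-fold, 2742 to 3758 and 2540 to 3808 against 0.5 h, 2083 to 3430 and 2361 to 3461 for 2 h against 1 h, and 2572 to 3328 and 4229 to 5129 against IL-4. For the genes highest at 1 h the range was 363 to 732 and for the lowest 421 to 872, where replicates 2 (387 and 447) and 3 (363 and 421) decided the value. Fewer calls can follow from the smaller number of samples alone.

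Of the 255 tested genes named, 220 kept their call and direction in each of the 19 alternatives that could test them. With equal totals, 10 turned to called lower: Cd180 (-0.55), Chuk (-0.42), Crebbp (-0.33), Ifngr1 (-0.38), Il6st (-0.47), Irak1 (-0.55), Lamp1 (-0.51), Mapk14 (-0.28), Stat5b (-0.48) and Tfe3 (-0.44), of which Crebbp and Mapk14 had been called higher. With median-of-ratios factors Chuk (0.43), Ifngr1 (0.47), Stat5b (0.38) and Tfe3 (0.41), not called above, were called higher, as were Cd36 (0.82) and Egr1 (1.99). The genes Csf2rb, Ctsb, Dusp10, Fos, Jun, Mapk8, Mef2a and Oas2, not called above, were called lower with equal totals. Added counts of 0.5 or 8 in place of 1 gave 3247 or 3288 genes higher and 4886 or 4984 lower. Depth is unknown, so a floor for values of 0 cannot be given.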
